A study of Mus musculus with 8 samples.

Results

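The genes described here make up the Nodal pathway at its outer layers: the ligand *Nodal*, its co-receptor *Tdgf1*, the inhibitors *Lefty1*, *Lefty2* and *Smad7*, the nuclear cofactor *Foxh1*, the receptors *Acvr1b* and *Acvr2b*, and the receptor Smad *Smad2*. These 9 genes were taken by symbol from the 54281 genes in the tables. The list was chosen by the measured values of these same libraries, by the contrast between columns with the suffix b2 and columns with the suffix b1 and by KO against WT within each suffix. The members' levels and differences along both contrasts are therefore given as a description. Counts of members called stand beside the share of all genes called, and support nothing here. *Nodal*, *Tdgf1*, *Lefty1* and *Smad7* were several-fold higher in the b2 than in the b1 libraries, while *Foxh1*, the receptors and *Smad2* were at similar levels. *Nodal* and *Tdgf1* were lower in both KO lines than in both WT lines within each suffix, as were 6.08% of all genes tested. *Lefty2* had the same order at low counts and was not tested. Nothing is read from these splits.

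RNA-seq was performed on epiblast-like cells (EpiLCs), which model the formative epiblast before the primitive streak, from 4 *Tet1* knockout (KO) lines and 4 wild-type (WT) lines. All are male embryonic stem cell (ESC) lines derived from (B6 × 129S6)F1-Tet1 tm1Koh blastocysts. They had been adapted to 2iL medium (MEK and GSK3β inhibitors with LIF) and were then converted on fibronectin for 2 days in N2B27 with 1% KOSR and 12 ng/ml bFGF. No Activin A was added in either genotype, so the medium held no supplemented ligand of the Nodal and Activin receptors. The columns of KO15, KO25, WT12 and WT34 carry the suffix b2, and those of KO1, KO9, WT7 and WT17 the suffix b1. Each suffix thus holds 2 KO and 2 WT lines. The labels and the methods do not explain it, and whatever separates b2 from b1 cannot be told apart from the lines themselves. The library titled WT12 has the cell line label WT9, and the one titled WT17 has the label WT12. Titles are used here, and both are WT under either name. Each line gave 1 library, so the spread mixes lines, cultures and libraries.

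NODAL is a secreted ligand of the TGF-β family. It binds type I and type II activin receptors together with an EGF-CFC co-receptor and acts through phosphorylated SMAD2 and SMAD3, which enter the nucleus with SMAD4 and bind DNA with FOXH1. In the mouse epiblast the pathway maintains its own ligand through a FOXH1-dependent enhancer and induces its own inhibitors, the secreted LEFTY proteins and the intracellular SMAD7. It patterns the anterior-posterior axis and is required for the primitive streak.

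Estimated counts summed to 13916576 to 23680839 per library. *Tet1*, the targeted gene, was low in every KO library, at 38.4 to 54.2 CPM (counts scaled to a library size of 1e6), against 559 to 851 CPM in WT libraries. The summed EpiLC markers ran from 1250 to 1360 TPM (transcripts on the same scale, corrected for length) in b2 and from 1090 to 1200 TPM in b1 libraries. Of them *Dnmt3a*, *Fgf5*, *Pou3f1* and *Sall2* were higher in b2 (edgeR adjusted p = 0.00839, 0.0201, 0.0189 and 0.013). *Pou5f1*, *Dnmt3b* and *Otx2* had log2 differences of 0.05, 0.08 and 0.15, and *Utf1* of -0.25. Naive markers summed to 22.3 to 37.1 TPM in b2 and to 29.1 to 38.8 TPM in b1 libraries. Of 12 primitive and visceral endoderm markers, 11 stayed under 1 TPM in every library and *Ttr* was at 0. The sum of 8 fibroblast markers was 5.63 to 17.5 TPM in b2 and 19.9 to 30.0 TPM in b1 libraries, with 5 of the 8 under 1 TPM in every library and *Postn* at 0. *Thy1* carried most of that sum, at 3.63 to 15.9 TPM in b2 and 18.0 to 28.3 TPM in b1 libraries, and *Fbn1* went the other way, at 0.118 to 0.235 TPM in b2 and 0.0561 to 0.113 TPM in b1 libraries (edgeR adjusted p = 0.0174). Trophoblast markers summed to 17.9 to 37.9 TPM in b2 and to 30.0 to 52.0 TPM in b1 libraries. *Krt18* carried most of that sum, at 10.8 to 32 TPM in b2 and 25.8 to 47.3 TPM in b1 libraries. *Gata3*, *Tfap2c* and *Eomes* went the other way in the fit, higher in b2 (edgeR adjusted p = 0.00354, 0.00526 and 0.00196). The suffixes overlapped for *Gata3*, at 0.307 (KO15), 0.328 (KO25), 6.22 (WT12) and 2.91 TPM (WT34) in b2. In b1 it was at 0.226 (KO1), 0.952 (KO9), 2.17 (WT7) and 0.988 TPM (WT17). The part of the *Thy1*, *Krt18* and EpiLC marker levels in the b2 against b1 values below was not tested. In bulk RNA, fewer cells of a type and less RNA per cell cannot be told apart.

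*Nodal* lies on the plus strand of chromosome 10 at chr10:61417972-61425338 (mm10), 1.38 Mb from *Tet1* on the same chromosome. It was measured at 25.4 (KO15), 22.0 (KO25), 48.8 (WT12) and 39.2 CPM (WT34) in b2 libraries, and at 6.98 (KO1), 5.91 (KO9), 12.2 (WT7) and 9.98 CPM (WT17) in b1 libraries. Every b2 library was above every b1 library, and within each suffix both KO lines were below both WT lines. The means were 33.8 ± 12.5 CPM in b2 and 8.76 ± 2.84 CPM in b1 (SD, n = 4 each). Lines of 1 genotype and suffix were alike, with the largest gap between WT12 and WT34 (1.25-fold). Because genotype and suffix both separated the values, KO and WT overlapped over all 8 libraries: the KO lines of b2 were above the WT lines of b1. The fitted log2 difference was 1.94 (SE 0.12) for b2 minus b1, which is 3.83-fold. For KO minus WT it was -0.88 (SE 0.62) without the suffix in the model and -0.84 (SE 0.12) with it.

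*Tdgf1* (Cripto) encodes the EGF-CFC co-receptor that NODAL needs to engage its receptors, and lies on the minus strand at chr9:110939603-110946158. Its values were 106 (KO15), 35.2 (KO25), 205 (WT12) and 178 CPM (WT34) in b2 libraries, and 27.6 (KO1), 10.3 (KO9), 40.8 (WT7) and 37.5 CPM (WT17) in b1 libraries. Both KO lines were again below both WT lines within each suffix, but b2 and b1 overlapped, since KO25 of b2 was below both WT lines of b1. The KO lines also differed from each other far more than the WT lines did, by 3.01-fold in b2 and 2.67-fold in b1, against 1.15-fold and 1.09-fold between WT lines. The fitted log2 difference was 2.10 (SE 0.35; 4.29-fold) for b2 minus b1. With the suffix in the model it was -1.25 (SE 0.35) for KO minus WT.

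The sequences upstream of the ligand and of its co-receptor are shown because these genes moved together across the libraries. Each gives the 250 bases before the start that RefSeq annotates (GRCm38.p6), 5′ to 3′ on the gene's strand. Capitals mark AATNNACA, a loose form of the FOXH1 motif, and CAGAC, a motif of SMAD proteins, searched on both strands.
Nodal, chr10:61417722-61417971, plus strand: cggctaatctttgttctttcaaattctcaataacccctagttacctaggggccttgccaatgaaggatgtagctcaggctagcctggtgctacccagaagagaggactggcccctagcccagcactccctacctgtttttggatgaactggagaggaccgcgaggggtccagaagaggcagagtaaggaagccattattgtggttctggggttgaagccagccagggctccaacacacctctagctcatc
Tdgf1, chr9:110946159-110946408, minus strand: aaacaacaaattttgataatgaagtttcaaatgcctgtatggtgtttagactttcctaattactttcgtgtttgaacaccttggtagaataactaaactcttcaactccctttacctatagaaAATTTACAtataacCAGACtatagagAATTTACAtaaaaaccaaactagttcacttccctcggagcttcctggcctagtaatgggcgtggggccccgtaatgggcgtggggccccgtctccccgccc
The *Tdgf1* sequence held AATNNACA at 127 and 101 bases before the start and CAGAC at 113 bases before it, between the other two and overlapping neither. The *Nodal* sequence held neither motif, and the stricter FOXH1 motif AATCCACA was in neither sequence. Only these 250 bases were searched, so enhancers outside them were not covered. Of 32851 promoters of the same length, 10.9% held AATNNACA, 42.2% CAGAC and 0.718% AATCCACA on either strand. The *Nodal* sequence held 3 CpG dinucleotides and that of *Tdgf1* held 7, against a median of 6 over all promoters. Promoters of 4 of the 9 genes were in the table, and those of the receptors were denser in CpG, with 42 for *Acvr1b* and 24 for *Acvr2b*.

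**Figure D1:**
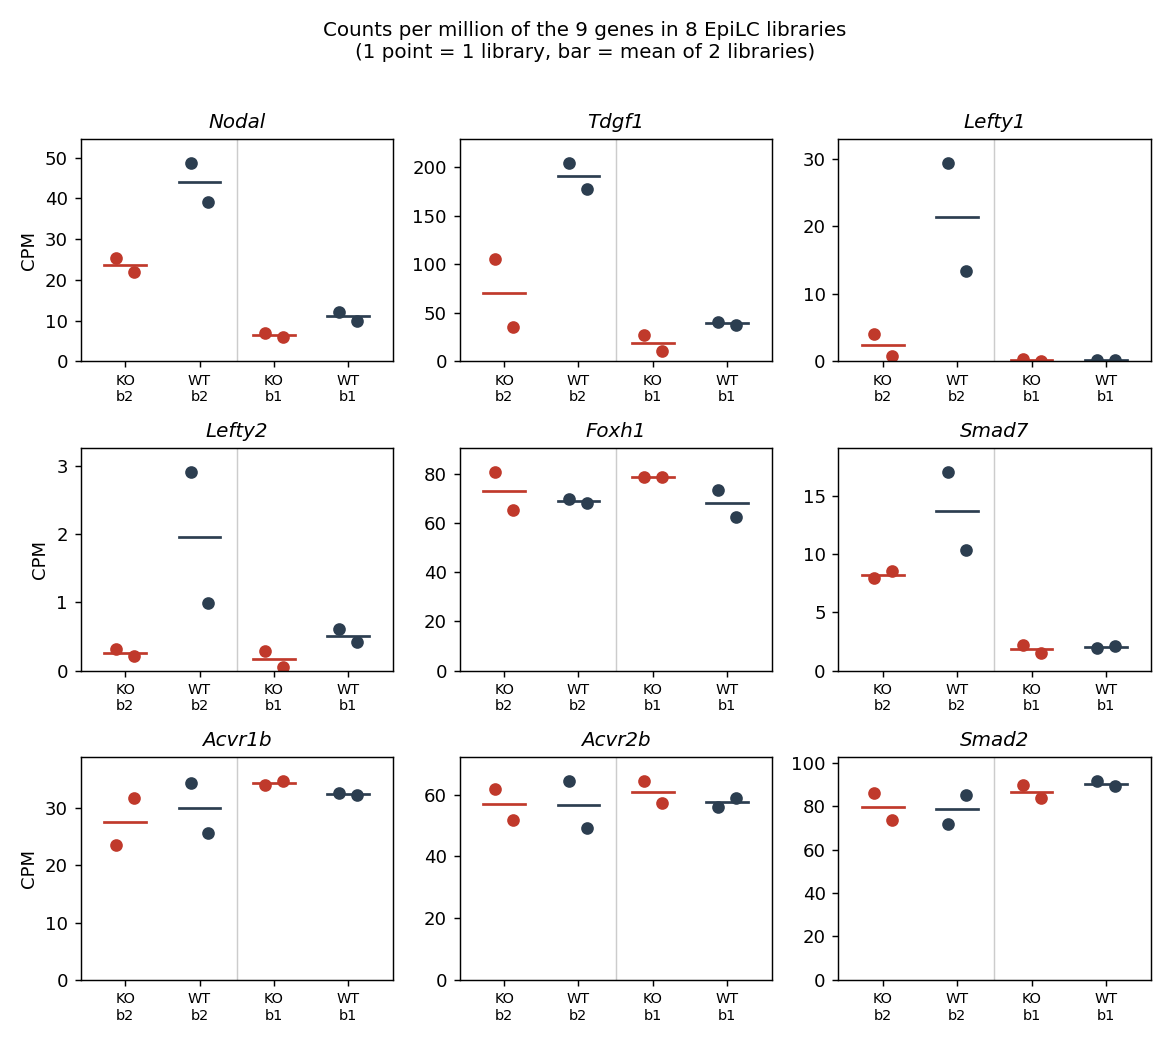
CPM of each gene (vertical axis, from 0, own scale per panel) in KO (red) and WT (dark) libraries of b2 and b1, 1 point per library and a bar at the mean of 2. The *Nodal* points of b2 (22.0 to 48.8 CPM) lie above those of b1 (5.91 to 12.2 CPM), with KO below WT on each side of the grey line, while *Acvr1b*, *Acvr2b*, *Smad2* and *Foxh1* stay within narrow ranges.

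Relative to *Nodal*, *Tdgf1* stood apart in 1 KO line of each suffix. The ratio of *Tdgf1* TPM to *Nodal* TPM, a comparison per transcript length, was 6.14 (KO15), 1.96 (KO25), 5.36 (WT12) and 6.69 (WT34) in b2 and 5.29 (KO1), 2.75 (KO9), 5.63 (WT7) and 5.50 (WT17) in b1 libraries. The ratio of the WT lines, KO1 and KO15 thus stayed between 5.29 and 6.69 although *Nodal* itself ranged from 1.45 to 10.6 TPM among them. *Tdgf1* has a processed pseudogene, *Tdgf1-ps1*, at chr16:3730510-3731022. The estimated counts of the pseudogene were 2 (KO15) and 19 (KO25) in the KO lines of b2, 0 (KO1) and 11 (KO9) in those of b1, and 0 in all 4 WT lines. The same KO25 and KO9 libraries therefore had the lowest *Tdgf1* to *Nodal* ratios and the most pseudogene counts. Their *Tdgf1* counts were 482 and 206, far above the counts given to the pseudogene. Without KO9 and KO25, an alternative chosen after the data were seen, the KO minus WT log2 difference of *Tdgf1* with the suffix in the model was -0.68 (SE 0.11), and that of *Nodal* -0.73 (SE 0.15). The b2 minus b1 difference of *Tdgf1* was then 2.16 (SE 0.11).

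The coding part of *Tdgf1* and the pseudogene were identical at 506 of 513 bases (98.6%), and 8.86% of the distinct 50-base stretches of *Tdgf1* transcripts, the length of the reads, also occurred in *Tdgf1-ps1*. The 60 bases with the most differences are shown because, in the stretch the pair shares, only reads over such bases can be told apart. Capitals mark the differing bases, and positions count from 1 at the first coding base, on the GENCODE M21 annotation of mm10.
Tdgf1, coding bases 405 to 464, chr9:110940756-110940815, minus strand: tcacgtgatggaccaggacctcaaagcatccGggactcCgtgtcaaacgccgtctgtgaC
Tdgf1-ps1, bases 405 to 464, chr16:3730914-3730973, plus strand: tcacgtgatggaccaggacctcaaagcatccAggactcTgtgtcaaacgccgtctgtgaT
This window held 3 of the 7 differences, and the longest run without one was 154 bases. Reads from within such a run carry nothing that separates the gene from its pseudogene, so the split between the pair is an estimate.

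**Figure D2:**
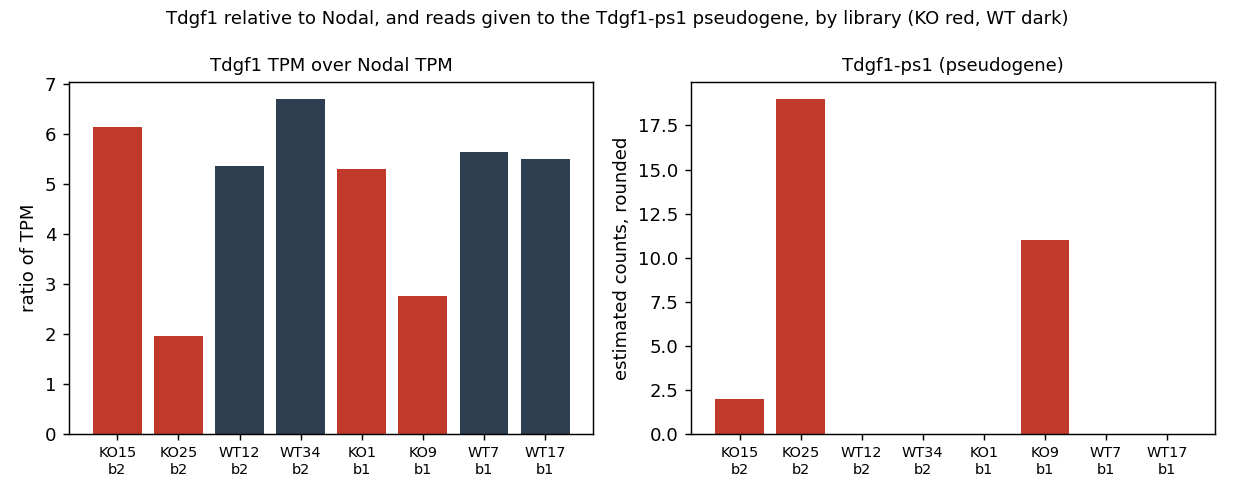
Left, *Tdgf1* TPM divided by *Nodal* TPM in each library. Right, estimated counts of the pseudogene *Tdgf1-ps1*. Bars are single libraries, KO in red and WT dark, with b2 to the left of b1. KO25 (1.96) and KO9 (2.75) have the low ratios and the most pseudogene counts (19 and 11).

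The *Lefty* genes encode secreted antagonists that bind NODAL and its co-receptor, and lie 35.9 kb apart on the plus strand of chromosome 1 (*Lefty2* at chr1:180893108-180899103, *Lefty1* at chr1:180935022-180938400). *Lefty1* was at 4.00 (KO15), 0.802 (KO25), 29.4 (WT12) and 13.4 CPM (WT34) in b2 libraries, from 77, 11, 706 and 189 counts. In b1 libraries it was at 0.375 (KO1), 0 (KO9), 0.220 (WT7) and 0.188 CPM (WT17), from 8, 0, 4 and 4 counts. All b2 libraries were above all b1 libraries, and the b1 libraries lay near the level of 3 counts (0.141 to 0.165 CPM). The count of 0 in KO9 allows up to 0.150 CPM. The fitted log2 difference of b2 minus b1 was 5.58 (SE 0.81). It was 4.89 without WT12, which held 706 of the b2 counts, and 6.76 without KO1, which held 8 of the few b1 counts. *Lefty1* passed the filter on low counts through its b2 libraries. Within b2, KO minus WT was -3.11 (SE 0.72), with both KO lines below both WT lines. Within b1 it was -0.07 (SE 1.45), and it ran from -4.97 without KO1 to 0.87 without KO9, so no direction was detectable at this depth.

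*Lefty2* was the 1 member that did not pass the filter on low counts. Its counts were 6 (KO15), 3 (KO25), 70 (WT12) and 14 (WT34) in b2 and 6 (KO1), 1 (KO9), 11 (WT7) and 9 (WT17) in b1 libraries, or 0.311, 0.219, 2.92 and 0.991 CPM in b2 and 0.281, 0.0501, 0.605 and 0.424 CPM in b1. It was the only member whose 4 KO libraries all lay below the 4 WT libraries, while b2 and b1 overlapped. KO was at most 0.311 CPM (6 counts) and WT at least 0.424 CPM (9 counts). No share of all genes is given for that separation, so nothing is read from it. In a fit with no filter the log2 difference was -2.48 (SE 0.68) for KO minus WT and 1.47 (SE 0.50) for b2 minus b1. The share of *Lefty1* in the counts of both genes was 92.8% (KO15), 78.6% (KO25), 91.0% (WT12) and 93.1% (WT34) in b2, but 57.1% (KO1), 0% (KO9), 26.7% (WT7) and 30.8% (WT17) in b1, where the pair had 14, 1, 15 and 13 counts in all. In b2 the pair had 83 (KO15), 14 (KO25), 776 (WT12) and 203 counts (WT34). On the CPM scale the sum of the pair was 4.31 (KO15), 1.02 (KO25), 32.4 (WT12) and 14.4 (WT34) in b2, all above the 0.656 (KO1), 0.0501 (KO9), 0.825 (WT7) and 0.612 (WT17) of b1.

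Both *Lefty* genes share sequence, and how Salmon split their reads bears on that share. Their coding sequences were identical at 1014 of 1104 bases (91.8%). Of the 50-base stretches, 17.9% of those of *Lefty1* and 12% of those of *Lefty2* occurred in the other gene. The 60 coding bases with the most differences, in the first coding exon, show where reads tell the genes apart, with capitals at the differing bases.
Lefty1, coding bases 34 to 93, chr1:180935143-180935202, plus strand: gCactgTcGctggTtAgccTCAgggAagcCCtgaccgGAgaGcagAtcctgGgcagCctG
Lefty2, coding bases 34 to 93, chr1:180893217-180893276, plus strand: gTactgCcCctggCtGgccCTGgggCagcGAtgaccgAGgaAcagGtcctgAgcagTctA
There were 18 differences in these 60 bases, but the longest identical run was 140 bases.

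*Smad7*, on chromosome 18, encodes the inhibitory Smad that blocks activated type I receptors. It was at 7.99 (KO15), 8.53 (KO25), 17.1 (WT12) and 10.4 CPM (WT34) in b2, and at 2.16 (KO1), 1.55 (KO9), 1.98 (WT7) and 2.12 CPM (WT17) in b1 libraries. All b2 libraries lay above all b1 libraries, and KO lay below WT in b2 only. The log2 difference of b2 minus b1 was 2.46 (SE 0.22; 5.48-fold). For KO minus WT it was -0.74 (SE 0.28) within b2 and -0.14 (SE 0.32) within b1, and within b2 it was -0.34 without WT12. The effective transcript length implied by counts and TPM differed 3.18-fold between libraries for *Smad7*, with KO9 the longest, against a median of 1.23-fold over 11952 genes. On the deposited TPM the ratio of the b2 mean to the b1 mean was 6.36, against 5.64 on CPM.

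*Foxh1*, at chr15:76668225-76669948 on the minus strand, encodes the forkhead factor that brings SMAD complexes to DNA. It did not follow the ligand. Its values were 80.8 (KO15), 65.2 (KO25), 69.8 (WT12) and 68.3 CPM (WT34) in b2 and 78.7 (KO1), 78.7 (KO9), 73.6 (WT7) and 62.5 CPM (WT17) in b1 libraries. The suffixes overlapped, with a log2 difference of -0.04 (SE 0.09). On CPM both KO lines lay above both WT lines in b1 only. On TPM all KO libraries, at 37.2 to 41.4, lay above all WT libraries, at 32.2 to 36.9. No share of all genes is given for either split, so nothing is read from them. KO minus WT with the suffix in the model was 0.15 (SE 0.09).

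The receptors and the receptor Smad varied little. *Acvr1b*, the type I receptor ALK4 at chr15:101174067-101213684, was at 23.5 (KO15), 31.7 (KO25), 34.4 (WT12) and 25.6 CPM (WT34) in b2, and at 34 (KO1), 34.7 (KO9), 32.6 (WT7) and 32.2 CPM (WT17) in b1 libraries. *Acvr2b*, a type II receptor at chr9:119402118-119434995, was at 61.8 (KO15), 51.9 (KO25), 64.3 (WT12) and 49.2 CPM (WT34) in b2 and at 64.4 (KO1), 57.3 (KO9), 56.0 (WT7) and 59.0 CPM (WT17) in b1 libraries. The span of *Acvr2b* overlaps the gene *Gm47320*, and the counting was not stated to use strand. *Smad2*, on chromosome 18, encodes the Smad phosphorylated by these receptors. It was at 85.9 (KO15), 73.6 (KO25), 71.9 (WT12) and 85.2 CPM (WT34) in b2, and at 89.6 (KO1), 83.6 (KO9), 91.6 (WT7) and 89.3 CPM (WT17) in b1 libraries. For each of the 3 genes b2 and b1 overlapped, and so did KO and WT over all 8 libraries. Within b1 both KO lines of *Acvr1b* lay slightly above both WT lines. The log2 differences of b2 minus b1 were -0.21 (SE 0.12) for *Acvr1b*, -0.06 (SE 0.10) for *Acvr2b* and -0.16 (SE 0.08) for *Smad2*. For *Smad2* the direction depended on the unit, since the b2 mean was 0.894 times the b1 mean in CPM and 1.16 times in TPM. For KO minus WT with the suffix in the model they were -0.02 (SE 0.12), 0.04 (SE 0.10) and -0.02 (SE 0.08). These are RNA levels. The phosphorylation of SMAD2, through which the signal passes, was not measured in these libraries.

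On the TPM scale, which corrects for length, *Foxh1*, the receptors and *Smad2* varied less between libraries than the ligand, its co-receptor and the inhibitors. *Foxh1* stood at 32.2 to 41.4 TPM over the 8 libraries, *Smad2* at 12.6 to 19.2, *Acvr2b* at 6.86 to 10.8 and *Acvr1b* at 2.21 to 3.41 TPM. The ranges of *Foxh1*, *Smad2*, *Acvr2b* and *Acvr1b* did not overlap. *Tdgf1* ran from 3.33 to 56.7 TPM, *Nodal* from 1.21 to 10.6, *Lefty1* from 0 to 10.6, *Smad7* from 0.148 to 3.23 and *Lefty2* from 0.00872 to 1.04 TPM. *Tdgf1* was above *Foxh1* in the b2 WT lines, at 56.7 TPM in WT12 and 52.2 TPM in WT34, and below it in the other 6 libraries.

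**Figure D3:**
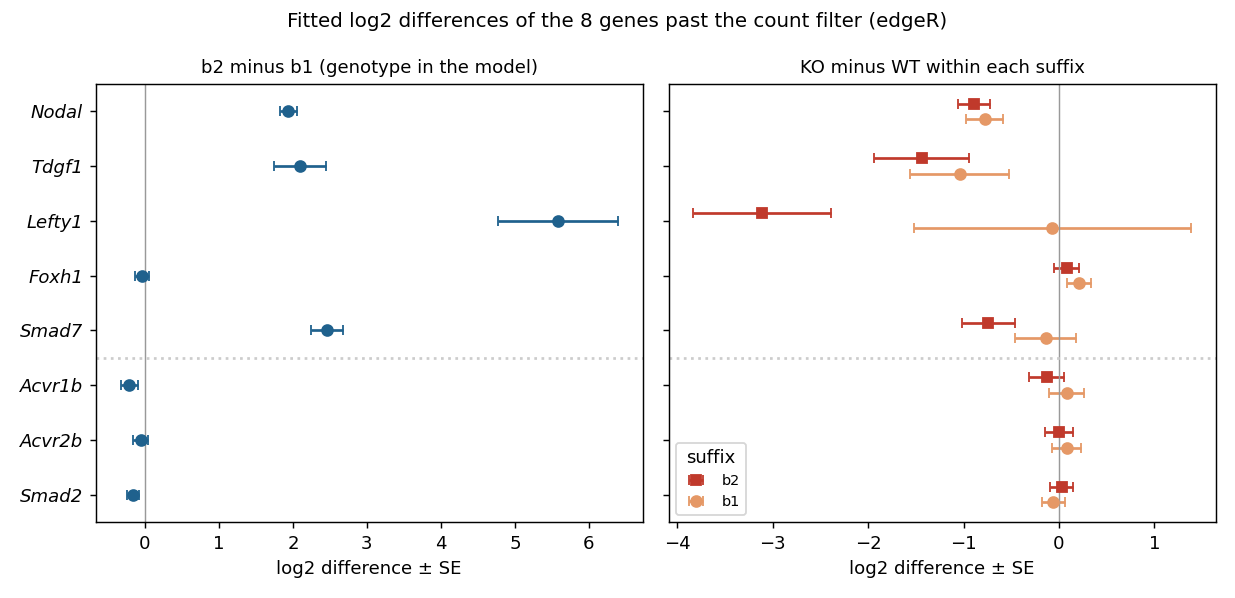
Fitted log2 differences (points) with standard errors (bars) for the 8 genes past the count filter, b2 minus b1 on the left and KO minus WT within b2 (squares) and b1 (circles) on the right. The dotted line separates the ligand and feedback genes from the receptors and *Smad2*. *Nodal* lies at 1.94 on the left and at -0.89 and -0.78 on the right, and the 3 genes under the line lie near 0 in both panels.

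Over all genes, 24.6% of the 17272 tested were called between b2 and b1 by edgeR's quasi-likelihood test at an adjusted p under 0.05 (2359 higher and 1894 lower in b2), and the median log2 difference was 0.01. With library size alone in place of TMM the split was 1933 higher and 2511 lower, with a median of -0.05. In the TMM fit 4 of the 8 members tested were called, all higher in b2, and none of the 3 receptor and receptor Smad genes. Nothing is read from that count, since the list was chosen on this contrast. Every b2 library was above every b1 library in 13.9% of the genes tested, and in 3 of the 8 members tested (*Nodal*, *Lefty1* and *Smad7*). The median log2 difference was 2.10 over the 5 ligand, co-receptor, cofactor and feedback genes tested and -0.16 over the receptors and *Smad2*.

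Between KO and WT the background was far lower. Without the suffix in the model edgeR called 0.0405% of the genes tested (7 genes, *Tet1* among them) and no member. With the suffix it called 0.162% (28 genes), and *Nodal* was the 1 member among them. Nothing is read from that count either, since KO against WT within each suffix also chose the list. The call was lost with limma on log2(TPM + 1) and on log2(TPM + 0.1). It was also lost when KO1, KO9, KO15, KO25, WT7 or WT17 was left out. The log2 difference ran from -0.90 to -0.75 over the 8 fits without 1 library. Within b1, 0.0232% were called (4 genes, *Tet1* among them), and within b2 also 0.0232% (4 genes, again with *Tet1*), with no member in either. Both KO libraries lay below both WT libraries within each suffix in 6.08% of the genes tested, and in 2 of the 8 members tested, *Nodal* and *Tdgf1*, beside the untested *Lefty2*. No such share is given for 1 suffix alone, where on CPM *Lefty1* and *Smad7* separated in b2 and *Foxh1* and *Acvr1b* in b1. Nothing is read from those splits.

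The decrease in KO was described separately in each suffix. For *Nodal* KO minus WT was -0.89 (SE 0.17) within b2 and -0.78 (SE 0.19) within b1. For *Tdgf1* it was -1.44 (SE 0.50) within b2, with -2.45 without KO15 and -0.86 without KO25, and -1.04 (SE 0.52) within b1, with -1.92 without KO1 and -0.50 without KO9. The difference between the suffixes was -0.12 (SE 0.25) for *Nodal*, -0.39 (SE 0.71) for *Tdgf1*, -3.04 (SE 1.70) for *Lefty1* and -0.60 (SE 0.42) for *Smad7*. With 1 library left out it ran from -4.66 (without KO15) to 1.86 (without KO1) for *Lefty1*, from -1.40 (without KO15) to 0.49 (without KO1) for *Tdgf1*, from -0.27 (without WT34) to 0.04 (without WT12) for *Nodal* and from -0.91 (without WT34) to -0.20 (without WT12) for *Smad7*, so its sign turned for all but *Smad7* of these 4. The quasi-likelihood test of edgeR called 0% of the genes tested for this difference, with 227 genes at an unadjusted p under 0.05 and 2 called by DESeq2.

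The other genes of the pathway were taken from 7 lists of 53 genes, of which 41 passed the count filter. In b2 against b1, 8 were called higher and 2 lower by edgeR, 10 of 41 against 24.6% of all genes, and their median log2 difference was 0.10. With the count filter, edgeR called none for KO against WT in any of the 4 fits or for the difference between the suffixes. DESeq2 called *Tgfbr3* for KO against WT and *Tgfbr3*, *Skil*, *Eomes* and *Nanog* with the suffix. Their directions were mixed. In the edgeR fit with the suffix KO minus WT was 0.87 for *Tgfbr3* and 1.14 for *Eomes*, but -0.38 for *Skil* and -0.54 for *Nanog*. Without the filter edgeR called the same 4 and *Tgfb3*, *Pcsk5*, *Ltbp1* and *Ltbp4* with the suffix, *Ltbp1* and *Skil* within b1, and *Nanog* within b2. Over all 35073 genes then tested it called 895 with the suffix, 311 within b1 and 407 within b2. Among other ligands 2 of 6 tested rose in b2. *Gdf3*, an epiblast ligand that uses the same co-receptor, had a log2 difference of 0.68 (edgeR adjusted p = 0.00106), with 62.3, 54.6, 50.5 and 60 CPM in b2 libraries (KO15, KO25, WT12, WT34) and 40.1, 33.2, 34.7 and 33.7 CPM in b1 libraries (KO1, KO9, WT7, WT17). *Inhbb*, the βB subunit of activins, had 1.99 (edgeR adjusted p = 0.0413), at 0.459 to 1.91 CPM in b2 and 0.0937 to 0.501 CPM in b1 libraries. It passed the count filter mostly through b2 libraries, where it was high, with KO9 of b1 beside them. It was not tested under the stricter filter, which asks every library for 10 counts. Its call was lost when any library other than KO9 or WT12 was left out, with log2 differences of 1.45 to 2.59 over the 8 fits.

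Among the extracellular inhibitors, *Fst* (follistatin, which binds activins) rose by 1.43 (edgeR adjusted p = 0.00313), at 5.40 to 10.4 CPM in b2 and 2.26 to 3.70 CPM in b1 libraries, and the other 6 tested were not called. *Cer1*, a NODAL antagonist of the visceral endoderm, was at 0 to 0.283 CPM and was not tested. Of the other receptors, *Tgfbr1* (ALK5, a type I receptor for TGF-β) rose by 0.74 (edgeR adjusted p = 0.00682), at 35.8 to 60.4 CPM in b2 and 24.1 to 33.2 CPM in b1 libraries, while *Acvr2a* had a log2 difference of 0.04 (edgeR adjusted p = 0.811). With limma on log2(TPM + 1) *Fst* and *Tgfbr1* were not called, at 0.81 and 0.60. On log2(TPM + 0.1) *Tgfbr1* was not called either. None of *Smad3*, *Smad4*, *Smad6* and *Zfyve9* was called.

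Of 12 intracellular inhibitors and repressors, 2 rose and 1 fell in b2. *Skil* (SnoN, a SMAD corepressor) had a log2 difference of 1.41 (edgeR adjusted p = 2.96e-05), at 326, 394, 469 and 441 CPM in b2 (KO15, KO25, WT12, WT34) and 143, 120, 166 and 188 CPM in b1 libraries (KO1, KO9, WT7, WT17). *Pmepa1*, whose product sequesters receptor Smads, rose by 1.85 (edgeR adjusted p = 0.00152), at 3.14 to 7.71 CPM in b2 and 1.32 to 1.64 CPM in b1 libraries. Of the list, 9 were not called, among them *Bambi* (-0.13), *Tgif1* (-0.09) and *Smurf2* (-0.05). *Drap1*, a corepressor that binds FOXH1, fell by 0.23 (edgeR adjusted p = 0.0354), and *Furin*, a convertase that cleaves the NODAL precursor, by 0.40 (edgeR adjusted p = 0.0399). The call of *Drap1* was kept without KO25, WT12 or WT17 and that of *Furin* without WT12 or WT17. Each was lost when any other single library was left out, at log2 differences of -0.28 to -0.20 for *Drap1* and -0.54 to -0.31 for *Furin*. Limma on either log2 TPM scale called neither gene, and edgeR without the count filter did not call *Drap1*.

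Of 10 target genes in the epiblast and streak, 5 were tested and 2 rose in b2. *Eomes*, a T-box factor of the streak, had a log2 difference of 1.44 (edgeR adjusted p = 0.00196), at 5.87 (KO15), 5.91 (KO25), 2.67 (WT12) and 2.76 CPM (WT34) in b2 and 2.34 (KO1), 2.06 (KO9), 1.26 (WT7) and 0.706 CPM (WT17) in b1 libraries. Unlike *Nodal*, it was above WT in both KO lines of each suffix. No share of all genes is given for that split, so nothing is read from it. With the suffix in the model KO minus WT was 1.14 (edgeR adjusted p = 0.100), a difference that DESeq2 called. *Foxa2*, a factor of the anterior streak and endoderm, rose by 1.83 (edgeR adjusted p = 0.0103), at 1.06 to 1.71 CPM in b2 and 0.200 to 0.659 CPM in b1 libraries. It passed the count filter through b2, where it was high, and like *Inhbb* was not tested under the stricter filter. *Otx2*, *Nanog* and *T* (Brachyury) had log2 differences of 0.15 (edgeR adjusted p = 0.638), 0.27 (edgeR adjusted p = 0.246) and 0.51 (edgeR adjusted p = 0.457). For *T* KO minus WT was 2.21 within b1 (edgeR adjusted p = 0.788) and 0.85 within b2 (edgeR adjusted p = 0.897).

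**Figure D4:**
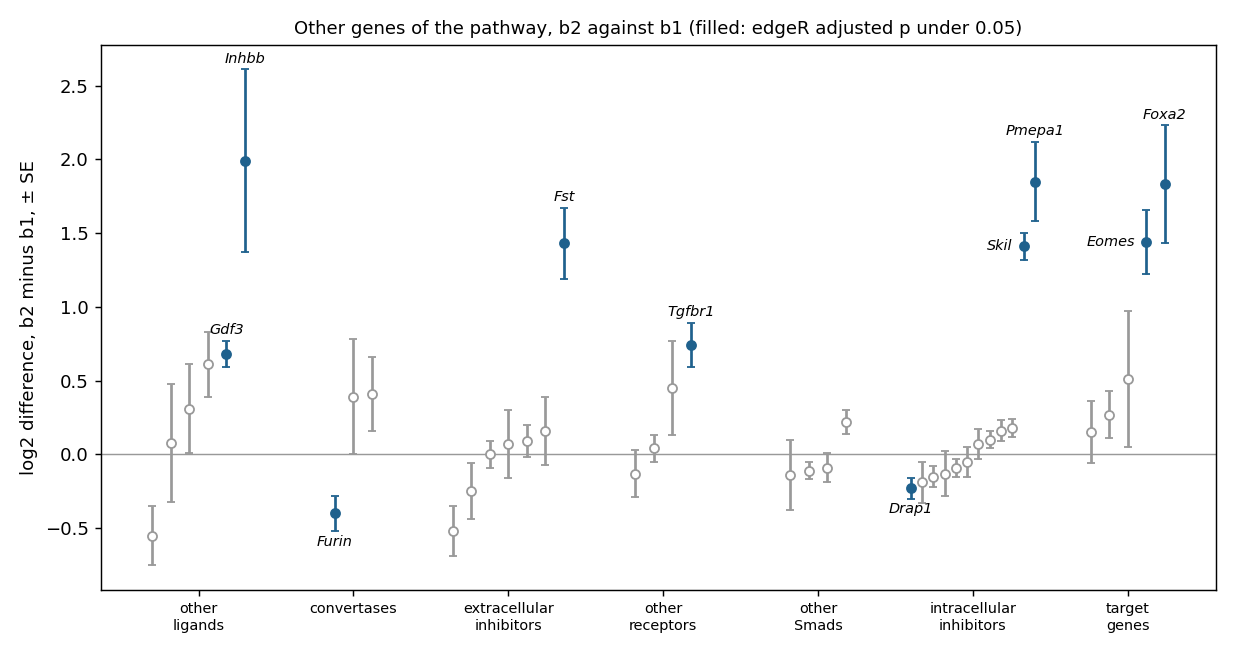
Log2 difference of b2 minus b1 with its standard error for the 41 other pathway genes tested, in 7 lists. Filled points passed edgeR's adjusted p of 0.05. *Inhbb* (1.99), *Pmepa1* (1.85), *Foxa2* (1.83), *Eomes* (1.44), *Fst* (1.43), *Skil* (1.41), *Tgfbr1* (0.74) and *Gdf3* (0.68) lie above 0, and *Furin* (-0.40) and *Drap1* (-0.23) below it.

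The genes most like *Nodal* were ranked by the Pearson r of log2 CPM over the 8 libraries, among 13010 genes of at least 1 CPM on average, as a measure of likeness only. The libraries fall into the 2 suffixes, and r therefore mostly follows that split. *Ago1* (r = 0.992), an Argonaute protein, *Zfp386* (0.990), *Tceal8* (0.990), *Sap30bp* (0.988) and *2610044O15Rik8* (0.986) came first. *Ago1* stood at 91.0 (KO15), 89.4 (KO25), 135 (WT12) and 121 CPM (WT34) in b2 and 52.9 (KO1), 45.1 (KO9), 59.7 (WT7) and 62.0 CPM (WT17) in b1 libraries, with KO below WT within each suffix. Of the members, *Smad7* ranked 90 (r = 0.962), *Lefty1* 209 (0.944) and *Tdgf1* 377 (0.927), while *Acvr2b*, *Foxh1*, *Acvr1b* and *Smad2* ranked 7463 to 9817, with r of -0.205 to -0.588. After the suffix means were removed, r with *Nodal* was 0.885 for *Tdgf1* (rank 200), 0.794 for *Lefty1* (rank 628) and 0.763 for *Smad7* (rank 819). It was -0.362 for *Foxh1* and 0.062 to 0.116 for the receptors and *Smad2*. The 5 most alike were then *Acad11*, *Gli1*, *Erg28*, *Gpd1l* and *Ankle1* in place of the 5 above.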

How the data were processed

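RNA-seq libraries of 4 *Tet1* KO and 4 WT EpiLC lines were examined. The authors prepared stranded mRNA libraries, trimmed the single-end reads with Trim Galore 0.6.4, ran Salmon 0.14.1 for quantification and used tximport (R 4.0.2) for gene-level values. The authors deposited estimated counts and TPM per gene as separate tables, and the submitters' processing notes name mm10. Salmon splits reads between near-identical sequences by estimation, which bears on *Lefty1*, *Lefty2* and *Tdgf1*.

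Estimated counts were rounded (27.8% of values changed). In edgeR 4.0.16 (R 4.3.3), filterByExpr kept 17272 genes, among them 8 of 9 members. Counts were normalized by TMM and tested by quasi-likelihood with Benjamini-Hochberg adjustment across the whole table, at an adjusted p of 0.05. CPM are per TMM-scaled library size. The b2 against b1 fit held genotype and suffix, and KO against WT was fitted without the suffix, with it and within each suffix from a fit of 4 groups. P-values measure the spread between lines with 1 library each. A level of 3 counts, the limit that a count of 0 allows, covers counting error only. At these depths it is 0.125 to 0.219 CPM. No library was a copy of another (pairwise r of log2 CPM 0.951 to 0.980). No column belonged to another series.

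The members and lists were chosen with earlier results of these data known. All members are named, as are pathway genes called in a fit and the 5 genes most like *Nodal* (predicted genes and pseudogenes left out); other genes named, such as *Cer1*, *Acvr2a*, *Otx2*, *Nanog*, *T*, *Bambi*, *Tgif1* and *Smurf2*, were picked once their values were known. Alternatives were the size factors of DESeq2 1.42.0, library size alone, no filter, at least 10 counts in every library, DESeq2, limma 3.58.1 on log2(TPM + 1) and log2(TPM + 0.1), and each line left out. Leaving out KO9 and KO25 together was added after seeing the data. Positions and transcripts are from GENCODE M21 (53544 of 54281 IDs matched), promoters from RefSeq. Some items are not reported here.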

Additional observations from a re-analysis of the deposited data

Results flagged for a closer look

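*Foxh1* in KO25 stood apart from the other KO libraries, at 65.2 CPM against 78.7 to 80.8 CPM in KO1, KO9 and KO15, and was the 1 such value among the 9 genes (its gap to the nearest was 0.867 of the range of the 4 samples, above Dixon's 95% critical value). Chance gives such a value in about 1 in 20 groups. The value was flagged on CPM only. On the TPM scale *Foxh1* was at 37.2 in KO25 against 39.7 (KO1), 39.8 (KO9) and 41.4 (KO15), a smaller gap relative to its range. KO25 had the lowest total count of the 8 libraries, 13916576, and whether depth bears on the value was not tested.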

How the results depend on the processing

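The calls of members lie on the contrasts that chose them and are not used as support. They changed with the setting: for b2 against b1 *Lefty1* was not called by limma on log2(TPM + 1). For KO against WT with the suffix *Nodal* was not called by limma on either TPM scale. Without the filter edgeR called *Nodal*, *Tdgf1*, *Lefty1* and *Lefty2* for KO against WT with the suffix and within b2, *Nodal* and *Tdgf1* within b1, and *Lefty1* for the difference between the suffixes. DESeq2, and edgeR without WT34, called *Nodal* within b2. The counts over all genes depended strongly on the tool. Without the filter, edgeR called 895 genes for KO against WT with the suffix in the model, 311 within b1, 407 within b2 and 168 for the difference between the suffixes. DESeq2 called 106 genes for KO against WT, 302 with the suffix, 40 within b1, 42 within b2 and 2 for the difference. Limma tested 13838 genes. On log2(TPM + 1) it called 1587 between b2 and b1, 2 for KO against WT, 2 with the suffix, 21 within b1, 28 within b2 and 1 for the difference. Limma on log2(TPM + 0.1) called 1624, 3, 3, 15, 14 and 17 in the same order. With each line left out in turn, the calls ran from 2655 (without KO9) to 4807 (without WT12) between b2 and b1, from 6 to 10 for KO against WT, from 9 (without KO9 or KO25) to 60 (without WT12) with the suffix, from 2 to 8 within b1, from 3 to 186 (without WT34) within b2 and from 0 to 8 (without WT34) for the difference. The cause was not tested. Fits that leave a suffix and genotype with 1 line assume that it varies like the others. No paired analysis was possible because the lines, which the study describes as littermate pairs, share no numbers and the sources used here do not say which KO line goes with which WT line. Depth limits *Lefty1* in b1 and *Lefty2* throughout.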
